A study of Mus musculus with 24 samples.

Results

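The experiment described here is the first change in the diaphragm of C57BL/6 wild type (WT) mice after infection with the nematode Trichinella spiralis. Its members are the 3 arrays labelled WT at 2 days post infection (2 dpi) and the 2 arrays labelled WT naive, 5 of the 24 arrays of the series. According to the methods, infected mice received 25000 newborn larvae into a vein behind the eye, which bypasses the intestinal phase, and the naive mice were uninfected; no other agent or allele is given for either group, nor are the ages of these mice. RNA of the whole diaphragm of each mouse was hybridised to an Illumina MouseRef-8 v2.0 BeadChip, so each value is a mixture of myofibres, vessels, connective tissue, the covering mesothelium and infiltrating cells. The other arrays came from WT mice at 7 dpi, from PHIL mice (which the study describes as eosinophil-ablated) and from Rag1-/- mice; the WT and PHIL arrays share 1 normalisation here and the Rag1-/- arrays were not used in the comparisons.

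Newborn larvae leave the circulation and enter striated muscle cells, which they wound and later turn into the nurse cells in which they live. Injured muscle is known to draw monocytes, to switch on myogenic regulators and fetal proteins, and to spread acetylcholine receptors beyond the endplate when its innervation is disturbed. Interferons act through STAT and IRF transcription factors, which bind the interferon-stimulated response element (ISRE) and the gamma-activated site (GAS) in the promoters of genes for GTPases of the IRG and GBP families, chemokines and antigen-presenting proteins.

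The 5 arrays were alike in median signal but differed by group in other measures. Median signals before normalisation were 112.5 to 114.6 at 2 dpi and 106.3 to 113.2 in naive muscle. Mean signals were 549 to 627 at 2 dpi and 437 to 502 in naive muscle. At 2 dpi 9735 to 10082 probes were detected, against 8847 to 9068 in naive muscle. The lowest log2 signal of a detected probe was 5.82 to 5.96 at 2 dpi and 6.25 to 6.35 in naive muscle, so detection was not equal in the 2 groups. Pearson correlations of normalised log2 signals over the 8226 genes tested were 0.986 to 0.992 within a group and 0.937 to 0.952 between groups. The 8 defining genes of skeletal muscle on the list (among them Acta1, Ckm, Mb and Pvalb) were detected in both groups, and none of the 8 was called. Of the 8, 1 was lower without 2 dpi replicate 3, 1 with the probe of highest mean signal and 1 with replicate number as a block. The Y-linked transcript Eif2s3y differed within both groups: its log2 signal was 7.72, 4.55 and 4.49 in the 3 mice at 2 dpi and 6.39 and 4.47 in the 2 naive mice, so 1 mouse of each group stood apart in this probe. The Y-linked Kdm5d and Uty were detected on none of the 5 arrays. Results with both mice of high Eif2s3y left out are given beside the named genes whose call depended on them.

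Values below are normalised signals on the log2 scale, given by replicate, and differences are 2 dpi minus naive. A gene was called where limma's Benjamini-Hochberg adjusted p was at most 0.05 and the change at least 1.5-fold (0.59 on the log2 scale). Of 8226 genes tested, 1920 (23.3%) were called in WT muscle at 2 dpi, 1076 (13.1%) higher and 844 (10.3%) lower; 4050 had an unadjusted p under 0.05. By fitted change, rises were larger than falls. Of the called genes, 521 were fitted at least 2-fold higher and 162 at least 2-fold lower. A fitted 4-fold difference was passed by 122 rises and 6 falls. Some of these genes were undetected in 1 group, and their fitted fold can exceed the lower bound defined below. Myod1, for example, was fitted at 2.41-fold higher with a bound of 1.11-fold. The 2 groups did not overlap for 5067 of all genes (61.6%), so the absence of overlap is common in these data; among the called genes only 17 overlapped. The median change of all genes was -0.05, and scaling the arrays to a common median in place of quantile normalisation put it at 0.31, with 2349 of 2535 called genes higher (92.7%, against 56.0% of the 1920). Of the 1920 calls, 1249 were shared with that scaling, and 818 of the 844 falls stayed below 0 under it. Measured from its shift of all genes, 1074 of the 1076 rises and 828 of the 844 falls kept their direction. Taking off the shift brings back the centring that quantile normalisation sets, so these last counts do not test the choice of normalisation.

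**Figure D1:**
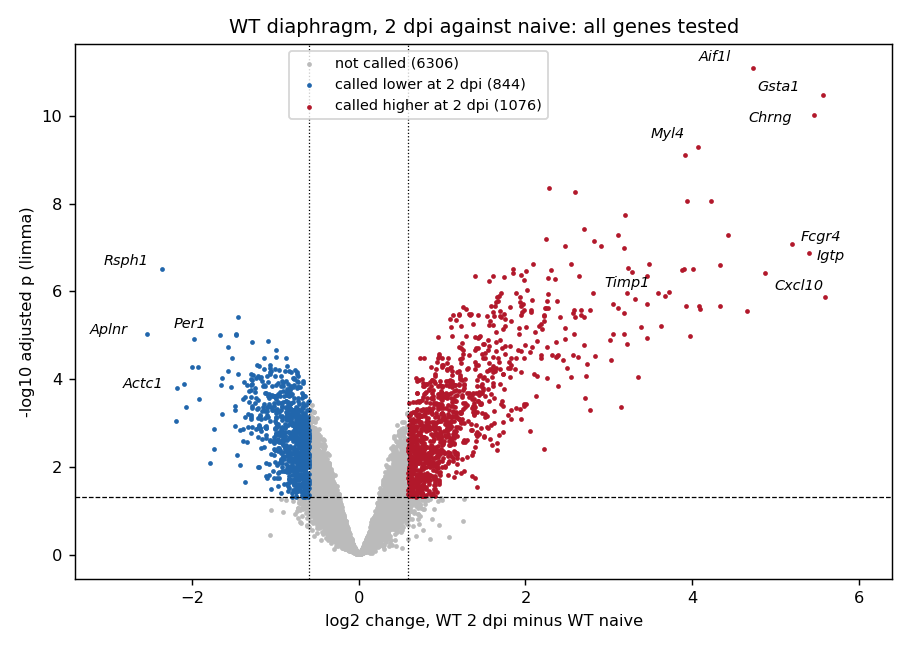
Each point is 1 of 8226 genes, with the log2 change of WT 2 dpi minus WT naive on the horizontal axis and -log10 of the adjusted p of limma on the vertical axis (n = 3 and 2 arrays); dashed and dotted lines mark the adjusted p of 0.05 and the 1.5-fold change. The 1076 genes called higher reach a log2 change of 5.59, while the 844 called lower reach -2.54.

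For 433 of the genes called higher no naive array detected the probe, and for 121 of those called lower no array at 2 dpi did. The fold of such a gene is given as a lower bound, with the undetected group put at the higher of its own signal and the lowest signal of any detected probe on each array. A further 70 called genes were detected in neither group and are not described by fold. In the gene lists below, a gene counted as measured where a probe was detected on at least 2 of the 16 WT and PHIL arrays. Counts among measured genes thus favour genes that were high after infection.

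Genes of the interferon response led the rises. Igtp, a GTPase that acts on vacuoles of intracellular parasites, had log2 signals of 13.85, 14.38 and 14.24 at 2 dpi and 8.78 and 8.73 in naive muscle, a 42.4-fold difference (log2 5.40, SE 0.35, adjusted p = 1.32e-07). Irgm2, which controls other members of that family, had 13.64, 13.79 and 13.89 at 2 dpi against 9.76 and 9.78 in naive muscle (16-fold). The guanylate-binding protein gene Gbp2 had 13.91, 14.19 and 14.04 at 2 dpi against 10.33 and 10.41 in naive muscle (12.8-fold). In each of these genes the 3 infected mice stood close together and far above both naive mice. All 10 measured of the 14 listed GTPases were called higher, where 13.1% of all genes were; their median change was 3.53 on the log2 scale, or 3.12 with undetected genes at their bound. Gbp10 was at least 13-fold higher, Gbp7 at least 8.37-fold, Gbp2b at least 6.20-fold, Tgtp1 at least 2.92-fold and Gbp5 at least 2.08-fold, while Irgm1 was 15.1-fold and Gbp3 9.09-fold higher. Iigp1 was called (fitted log2 1.13) but detected in only 2 of 3 infected mice and in no naive mouse, so no fold is given, and it missed the fold threshold without background correction (log2 0.47).

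The promoters of several of these genes are printed here because they hold the ISRE core, the letters GAAA, any 2 bases and GAAA again on either strand, shown in capitals. Each is the 250 bases before the annotated start of transcription, 5' to 3' on the strand of the gene, from RefSeq on GRCm38.p6. In Isg15, which encodes a ubiquitin-like protein, 3 matches overlap in 1 run of capitals.
Igtp, chr11:58199306-58199555, plus strand: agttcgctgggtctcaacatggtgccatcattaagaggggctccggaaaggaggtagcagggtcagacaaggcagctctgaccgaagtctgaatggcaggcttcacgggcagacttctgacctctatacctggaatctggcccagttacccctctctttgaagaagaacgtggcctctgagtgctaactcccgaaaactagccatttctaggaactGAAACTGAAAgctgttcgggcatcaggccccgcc
Gbp2, chr3:142620413-142620662, plus strand: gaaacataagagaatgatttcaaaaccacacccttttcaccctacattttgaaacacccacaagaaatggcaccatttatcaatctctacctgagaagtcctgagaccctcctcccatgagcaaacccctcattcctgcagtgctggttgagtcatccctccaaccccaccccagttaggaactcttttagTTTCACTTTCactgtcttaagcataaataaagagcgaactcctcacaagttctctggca
Isg15, chr4:156200819-156201068, minus strand: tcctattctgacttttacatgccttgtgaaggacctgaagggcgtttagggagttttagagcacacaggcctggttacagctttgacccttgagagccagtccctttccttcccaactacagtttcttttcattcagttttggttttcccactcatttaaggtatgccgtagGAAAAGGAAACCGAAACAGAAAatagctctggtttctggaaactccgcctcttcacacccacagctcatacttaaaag
Cxcl10, chr5:92348890-92349139, minus strand: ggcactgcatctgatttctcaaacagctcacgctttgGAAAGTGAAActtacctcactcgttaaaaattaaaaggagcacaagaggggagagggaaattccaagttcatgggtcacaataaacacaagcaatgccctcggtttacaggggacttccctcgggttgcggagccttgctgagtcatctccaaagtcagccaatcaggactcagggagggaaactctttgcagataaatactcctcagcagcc
The ISRE core was found in 9 of 10 promoters of the called GTPase genes (9 of the 10 genes had a promoter in the table, 1 of them with 2 starts) and in 10 of 17 promoters of the called type I interferon list, against 3.43% of all 32817 promoters (the bases shown and the next 50), 7.21% of promoters of all genes called higher, 1.03% of those called lower and 2.68% of those tested and not called. Other lists of genes called higher held it less often. The ISRE core stood in 1 of 12 promoters of interferon signalling and transcription factors and in 2 of 9 of chemokines. It stood in 3 of 15 promoters of MHC class I genes and in 0 of 6 of MHC class II. The GAS letters TTCNNNGAA stood in 5 of those 10 GTPase promoters, in 0 of the 6 of MHC class II and in 8.29% of all promoters. A match describes the letters only.

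Genes induced by type I interferon followed the same direction. Of 24 measured members of that list (30 listed), 22 were called higher and none lower, with a median log2 change of 2.20. Ifit3, an antiviral tetratricopeptide protein, had 13.13, 13.47 and 13.43 at 2 dpi against 9.83 and 9.89 in naive muscle (11.2-fold, adjusted p = 2.44e-07). Oasl2, of the oligoadenylate synthetase family, was 11-fold higher, Isg15 9.97-fold, the RNA sensor regulator Dhx58 5.54-fold and the membrane protein Ifitm3 3.13-fold. Mx1 was not called (4.94, 5.88 and 6.06 at 2 dpi against 4.89 and 4.88 in naive muscle, adjusted p = 0.0723), and it passed without replicate 1 of the 2 dpi group (log2 1.08, adjusted p = 0.00713) and without both mice of high Eif2s3y (log2 1.08, adjusted p = 0.0293). Among transcription factors and signalling genes, 11 of 16 measured (20 listed) were higher and 1 lower. Irf7, which amplifies type I interferon, had 9.30, 9.92 and 10.00 at 2 dpi against 6.32 and 7.11 in naive muscle (8.12-fold). Irf1 was 5.20-fold, Stat2 4.77-fold and Irf9 4.06-fold higher. The regulators of antigen presentation Nlrc5 and Ciita were at least 8.29-fold and at least 2.41-fold higher. The member that fell was Cish, a suppressor of cytokine signalling, with 8.91, 9.96 and 9.83 at 2 dpi against 11.75 and 10.95 in naive muscle (log2 -1.79, SE 0.47, adjusted p = 0.00842); leaving out naive replicate 1 ended this call (log2 -1.39, adjusted p = 0.0872), as did leaving out both mice of high Eif2s3y (log2 -1.06).

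Antigen presentation rose with both classes of MHC. In class I, 16 of 17 measured genes (19 listed) were higher, with a median log2 change of 1.70. H2-T23, which encodes a non-classical class I chain, had 9.47, 9.96 and 10.19 at 2 dpi against 5.16 and 5.92 in naive muscle, where no array detected it, a difference of at least 11.9-fold. The 3 catalytic subunits of the immunoproteasome rose together: Psmb9 was 14.7-fold higher (11.05, 11.84 and 11.94 at 2 dpi, 7.77 and 7.70 in naive muscle), Psmb10 6.34-fold and Psmb8 at least 3.46-fold. Tap1, which moves peptides into the endoplasmic reticulum, was at least 5.43-fold, the peptide editor Tapbpl 6.86-fold and the light chain B2m 3.84-fold higher. The classical heavy chain H2-K1 was at least 1.51-fold higher. In class II, 10 of 11 measured genes (15 listed) were higher, with a median of 1.75. Cd74, the invariant chain, had 11.95, 11.90 and 11.91 at 2 dpi against 10.34 and 10.08 in naive muscle (3.28-fold), and H2-Ab1 and H2-Eb1 were 3.38-fold and 3.36-fold higher. H2-Aa was at least 3.56-fold higher. For comparison, 6 of 22 measured genes of the constitutive proteasome (27 listed) were called higher and none lower.

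Chemokine genes were divided. Of 21 measured (26 listed), 12 were higher, 1 lower and 8 not called. Cxcl10, a ligand of CXCR3 on T and NK cells, had 9.79, 9.75 and 9.20 at 2 dpi against 4.74 and 4.67 in naive muscle, where no array detected it (at least 9.76-fold, adjusted p = 3.89e-07). Cxcl9, a ligand of the same receptor, had 11.59, 12.25 and 12.06 at 2 dpi against 7.96 and 7.81 in naive muscle (16.9-fold). The monocyte attractants Ccl12 and Ccl8 were at least 9.42-fold and at least 6.78-fold higher, and Ccl9 3.95-fold. Cxcl12, which holds cells in tissues, was the lower member (log2 -0.76, SE 0.13), and its sign turned under common-median scaling (log2 0.29). The gene for interferon gamma, Ifng, was detected on none of the 5 arrays by either of its probes.

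**Figure D2:**
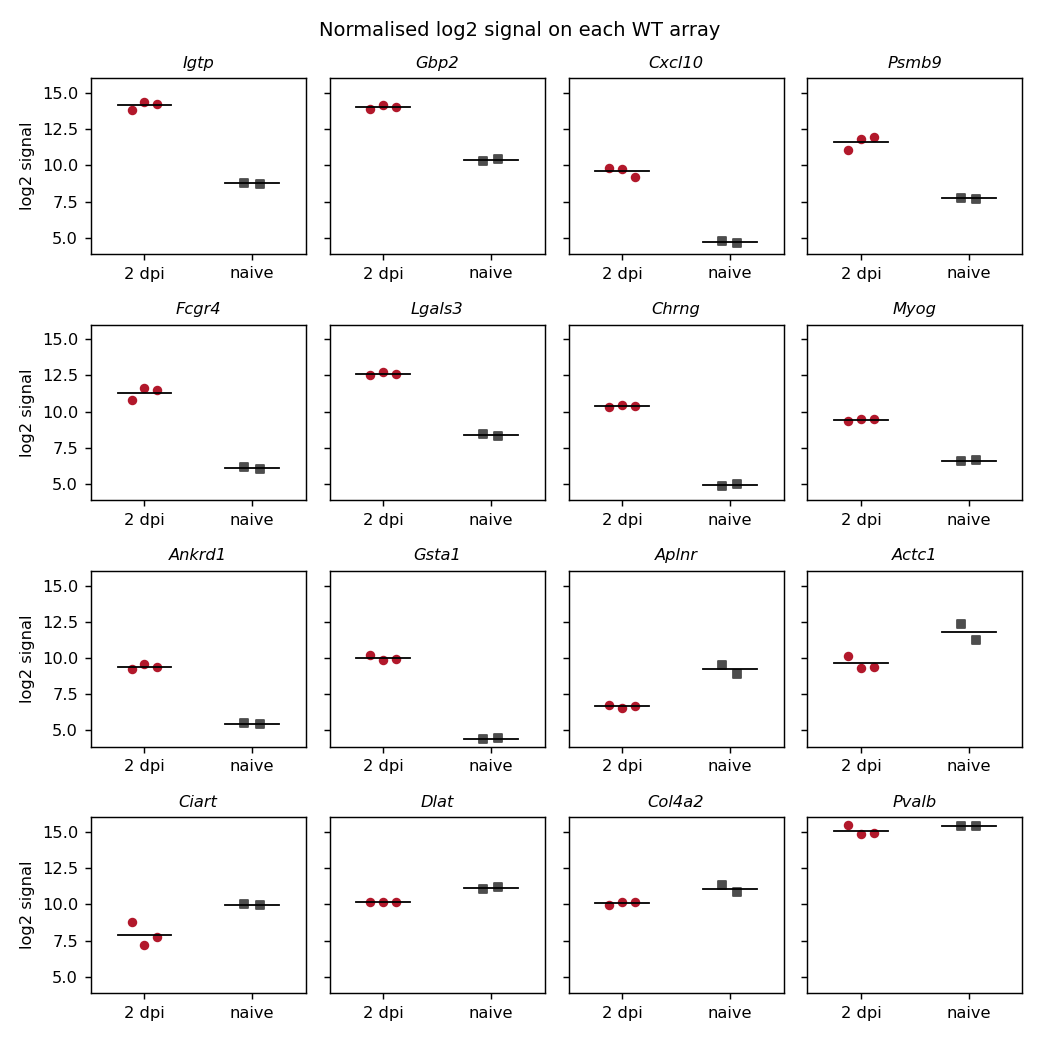
Each panel gives the normalised log2 signal of 1 gene on the 3 arrays of WT 2 dpi (circles, left) and the 2 arrays of WT naive (squares, right), with a line at each mean. In Igtp, Gbp2, Cxcl10, Psmb9, Fcgr4, Lgals3, Chrng, Myog, Ankrd1 and Gsta1 all 2 dpi arrays lie above both naive arrays, in Aplnr, Actc1, Ciart, Dlat and Col4a2 all lie below, and in the muscle gene Pvalb, which was not called, the 2 dpi arrays span 14.9 to 15.5.

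Genes of macrophages and monocytes formed the next group. Of 35 listed, 22 were measured, and 20 of these were called higher and none lower, with a median log2 change of 2.09 (1.61 with undetected genes at their bound). Of the 29 listed genes with a probe, 21 were detected at 2 dpi and 12 in naive muscle, so the filter favours rises in this count. Fcgr4, an activating receptor for immunoglobulin G, had 10.79, 11.62 and 11.51 at 2 dpi against 6.17 and 6.07 in naive muscle, where it was not detected (at least 32.3-fold, adjusted p = 8.56e-08). Lgals3, encoding galectin-3, had 12.50, 12.77 and 12.59 at 2 dpi against 8.46 and 8.34 in naive muscle (18.7-fold). Gpnmb, Ms4a6d and the signalling adaptor Tyrobp were 9.13-fold, 9.04-fold and at least 5.93-fold higher, and Aif1 was at least 6.81-fold higher. The endotoxin co-receptor Cd14 was not called (log2 0.37, adjusted p = 0.0242; called under common-median scaling, log2 0.86). Of the genes of alternatively activated macrophages, 5 of 9 measured (14 listed) were higher, Mrc1 by 1.94-fold, Lyve1 by 2.10-fold and the lectin gene Chil3 by at least 1.5-fold. In whole tissue, more cells of a type and more RNA per cell cannot be told apart, nor can fewer and less.

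The summed signal of the macrophage list was 41598 to 48084 at 2 dpi and 11288 to 12887 in naive muscle. Lists of other leukocytes gave few calls or none. None of the 11 eosinophil genes with a probe was detected on any of the 5 arrays, and the summed signals were 332 to 350 at 2 dpi and 342 to 345 in naive muscle, so Epx, Prg2 and Siglecf were at the level of undetected probes. Of 13 neutrophil genes with a probe, 2 were detected at 2 dpi and 1 in naive muscle, and neither of the 2 measured was called. Of 12 measured genes of T and NK cells (25 listed), 4 were higher and 1 lower, but these counts fell to 1 in all when 2 dpi replicate 3, naive replicate 1 or naive replicate 2 was left out, to 3 without 2 dpi replicate 2, to 2 without both mice of high Eif2s3y and to 0 without background correction or with the values the authors deposited. The summed signal of that list was 1852 to 2124 at 2 dpi and 2143 to 2356 in naive muscle. Cd3e and Cd3g were detected on none of the 5 arrays. Of the cytokines of type 2 immunity, Il4 and Il5 were detected on none of the 5 arrays, and Il13 was detected on 2 of 3 arrays at 2 dpi (6.16, 5.63 and 6.22) and 1 of 2 naive arrays (6.01 and 6.35), with overlapping groups.

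Complement and acute phase genes were also higher, in 11 of 14 measured (21 listed), with 1 lower. C1qb and C1qc, chains of the first complement component made by macrophages, were 3.81-fold and 3.59-fold higher, and C4b 2.92-fold. Serpina3n, a protease inhibitor induced in injured muscle, had 10.40, 11.47 and 11.27 at 2 dpi against 8.65 and 7.97 in naive muscle (6.66-fold), and the iron-trapping Lcn2 was 3.95-fold higher. Saa3, a serum amyloid, had 8.30, 9.89 and 8.92 at 2 dpi, while its naive values were 4.79 and 6.99, and its log2 change of 3.15 became 2.05 without naive replicate 1 and 4.25 without naive replicate 2. Cd274, encoding the checkpoint ligand PD-L1, was 12.3-fold higher (11.77, 12.14 and 12.11 at 2 dpi, 8.38 and 8.39 in naive muscle), and Ido1, which degrades tryptophan, was at least 5.97-fold higher.

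Muscle itself changed at the same time. Chrng, the fetal gamma subunit of the acetylcholine receptor, had 10.32, 10.48 and 10.39 at 2 dpi against 4.87 and 5.01 in naive muscle, where no array detected it, a difference of at least 17.2-fold (fitted log2 5.46, SE 0.18, adjusted p = 9.37e-11). Chrna1, the alpha subunit, had 10.78, 10.97 and 10.92 at 2 dpi against 8.96 and 8.81 in naive muscle (4.01-fold), Chrnb1 was 1.64-fold higher, and Musk, the kinase that organises the endplate, 2.65-fold. The adult subunit Chrne went the other way (6.45, 5.51 and 6.07 at 2 dpi against 6.76 and 6.73 in naive muscle, log2 -0.74, SE 0.26, adjusted p = 0.0356), but this call was lost without 2 dpi replicate 2 (log2 -0.49), 2 dpi replicate 3 (-0.77), naive replicate 1 (-0.72) or naive replicate 2 (-0.75). It was also lost under common-median scaling (-0.28), and without background correction or with the values the authors deposited (-0.34 in each). With only the 5 arrays normalised and fitted the call was lost too (-0.71). Chrnd was called (log2 0.70) and lost the call without 2 dpi replicate 1 (0.71) or 2 (0.46) or either naive array (0.56 and 0.83). The call of Chrnd was also lost without both mice of high Eif2s3y (0.57) and without background correction (0.29). Chrnd was detected in 1 infected and no naive mouse. Over the whole list of 10 measured receptor and endplate genes (14 listed), 5 were higher and 1 lower, and Agrn, Rapsn, Lrp4 and Dok7 were not called.

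The promoters of the fetal gamma and the alpha subunit are shown because both hold the E-box CAGCTG, which myogenic factors such as MyoD and myogenin are known to bind; it is in capitals in the 250 bases before the start.
Chrng, chr1:87205561-87205810, plus strand: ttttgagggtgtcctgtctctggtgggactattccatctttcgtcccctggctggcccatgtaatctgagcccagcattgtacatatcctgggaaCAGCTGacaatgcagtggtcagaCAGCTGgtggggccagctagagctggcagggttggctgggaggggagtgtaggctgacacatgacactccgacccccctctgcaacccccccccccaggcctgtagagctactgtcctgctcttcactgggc
Chrna1, chr2:73580339-73580588, minus strand: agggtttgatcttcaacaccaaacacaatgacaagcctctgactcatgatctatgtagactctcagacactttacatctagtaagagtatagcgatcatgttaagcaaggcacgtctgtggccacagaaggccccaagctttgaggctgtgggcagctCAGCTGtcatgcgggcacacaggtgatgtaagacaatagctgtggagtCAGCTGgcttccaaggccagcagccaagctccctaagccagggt
Each has 2 matches, which stand 155 and 132 bases before the start in Chrng and 92 and 44 bases before it in Chrna1. The same 6 letters are in 16.3% of all promoters, in 17.6% of those of genes called higher, in 17% of those of genes called lower and in 15.3% of those of genes tested and not called.

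Of 10 measured myogenic factors and satellite cell genes (20 listed), 4 were higher and 1, Notch3, lower (log2 -1.21), while Des, Myf6, Vcam1, Chodl and Megf10 were not called. Myog, which drives terminal differentiation, had 9.38, 9.50 and 9.47 at 2 dpi against 6.61 and 6.65 in naive muscle (7.05-fold, adjusted p = 7.02e-08). Myod1 was at least 1.11-fold higher and was detected in all infected and in no naive mice, though it missed the fold threshold without background correction (log2 0.52). The adhesion molecule Ncam1 was 2.73-fold higher. Myl4, an embryonic and atrial myosin light chain, had 12.88, 13.17 and 12.97 at 2 dpi against 8.95 and 8.93 in naive muscle (16.8-fold, adjusted p = 5.04e-10). Actc1, the cardiac actin that is also fetal in skeletal muscle, moved the opposite way, with 10.16, 9.34 and 9.38 at 2 dpi against 12.35 and 11.25 in naive muscle (log2 -2.18, SE 0.32, adjusted p = 0.000162; another probe of this gene gave -0.65), and the growth factor gene Igf2 was 1.98-fold lower. Thus the list of embryonic and perinatal proteins held 4 rises and 2 falls in 11 measured genes (17 listed).

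Genes that muscle expresses under stretch or injury were higher in 12 of 20 measured (22 listed), with 1 lower. Ankrd1, a titin-binding ankyrin repeat protein, had 9.22, 9.62 and 9.40 at 2 dpi against 5.50 and 5.45 in naive muscle, where it was not detected (at least 8.67-fold). Mustn1 was 6.05-fold, the cell cycle inhibitor Cdkn1a 4.85-fold, the TWEAK receptor Tnfrsf12a 4.27-fold and Runx1, a factor induced by denervation, at least 1.87-fold higher. Gadd45g was the member that fell (2.75-fold). Outside the lists, Rrad, a GTPase that restrains calcium channels, was 21.6-fold higher (11.15, 10.95 and 10.73 at 2 dpi, 6.36 and 6.66 in naive muscle) and Aif1l, an actin-bundling protein, 26.4-fold higher (12.13, 12.08 and 12.01 at 2 dpi, 7.49 and 7.20 in naive muscle).

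Most genes of the contractile apparatus were not called. Of 38 measured proteins of mature striated muscle (48 listed), 29 were not called, 2 were higher and 7 lower (18.4%, where 10.3% of all genes were lower). Their median log2 change was -0.14 in the main setting and -0.14 under common-median scaling, or -0.45 once the shift of all genes is taken off. For the 8 defining genes of skeletal muscle these medians were -0.06, -0.19 and -0.50. Tcap, which links titin at the Z-disc, had 14.06, 13.90 and 13.95 at 2 dpi against 14.76 and 14.90 in naive muscle (1.82-fold lower), Myh7, the slow myosin heavy chain, was 1.82-fold lower (not called under common-median scaling, log2 -0.48) and the calcium store protein Casq1 2.22-fold lower. Cacng1, a subunit of the muscle calcium channel, was 2.90-fold higher. The fast myosin Myh4 spread too widely for a call (9.85, 8.66 and 7.96 at 2 dpi, 8.47 and 7.24 in naive muscle, adjusted p = 0.217), and its groups overlapped.

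**Figure D3:**
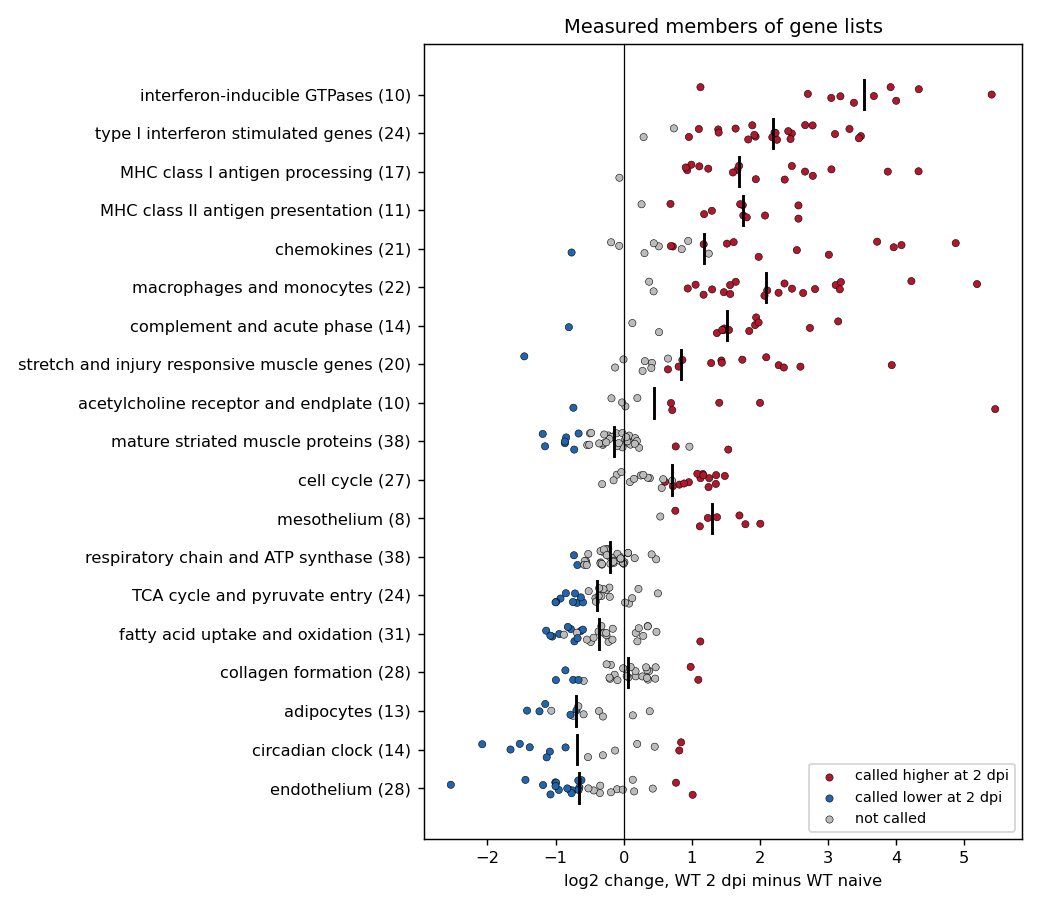
Each point is a measured member of a gene list, placed by its log2 change of WT 2 dpi minus WT naive (red called higher, blue called lower, grey not called); black bars mark the list medians and brackets give the number of measured members. The medians run from 3.53 for the interferon-inducible GTPases down to about zero for collagen formation and to -0.69 for adipocytes and the circadian clock.

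Metabolic genes were lower in part. Of 24 measured genes of the TCA cycle and pyruvate entry (30 listed), 9 were lower and none higher, where 10.3% of all genes were lower; 5 were lower without naive replicate 2, and 2 lower and 1 higher under common-median scaling. Dlat, of the pyruvate dehydrogenase complex, had 10.14, 10.15 and 10.16 at 2 dpi against 11.06 and 11.22 in naive muscle (1.99-fold lower, adjusted p = 3.16e-05), Idh3a was 1.90-fold and Ogdh 1.61-fold lower. In fatty acid uptake and oxidation 10 of 31 measured (40 listed) were lower and 1 higher, with Slc25a20, the carnitine carrier of mitochondria, 2.20-fold, Decr1 1.92-fold and the transporter Slc27a1 1.71-fold lower. The exception was Ppargc1a, a coactivator of mitochondrial biogenesis, with 10.24, 9.92 and 9.99 at 2 dpi against 9.04 and 8.80 in naive muscle (2.18-fold higher). Only 2 of 38 measured genes of the respiratory chain and ATP synthase (41 listed) were called, Cyc1 (1.66-fold) and Uqcrc1 (1.6-fold), both lower and both of complex III; the number was 6 without 2 dpi replicate 1, 5 without naive replicate 1 (4 lower and 1 higher) and 5 without both mice of high Eif2s3y. Under common-median scaling the calls of Cyc1 (log2 -0.57), Uqcrc1 (-0.55), Ogdh (-0.50) and Slc27a1 (-0.43) were lost. The list medians in the main setting were -0.20 for the respiratory chain, -0.39 for the TCA cycle and -0.37 for fatty acids. Under common-median scaling they were -0.12, -0.12 and -0.20, and with the shift of all genes taken off -0.43, -0.43 and -0.51. Values with the shift taken off do not test the choice of normalisation.

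Glucose handling was divided among members. The insulin-responsive transporter Slc2a4 was 2.13-fold lower (9.71, 9.09 and 9.26 at 2 dpi, 10.27 and 10.62 in naive muscle), the phosphorylase kinase subunit Phkg1 2.18-fold and muscle glycogen phosphorylase Pygm 1.58-fold lower (Pygm was not called under common-median scaling, log2 -0.38). Hk3, a hexokinase of myeloid cells, was at least 4.36-fold higher, and Ppp1r3c, which targets a phosphatase to glycogen, 2.30-fold higher. Over the list, 3 of 30 measured genes (39 listed) were higher and 6 lower (10% and 20%, against 13.1% and 10.3% of all genes). The list median of -0.21 turned to 0.10 under common-median scaling. Among enzymes of amino acids and polyamines, Psat1 of serine synthesis was 3.52-fold, Odc1 of polyamine synthesis 2.95-fold and Asns of asparagine synthesis 2.23-fold higher, in a list with 4 rises and 1 fall in 15 measured genes.

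Genes of vessel lining were lower. Of 28 measured endothelial genes (32 listed), 16 were lower and 2 higher, against 10.3% and 13.1% of all genes, with a median log2 change of -0.66 (-0.31 under common-median scaling, -0.62 once the shift of all genes is taken off). Aplnr, the apelin receptor, gave the largest fall of all genes called, with 6.74, 6.57 and 6.72 at 2 dpi against 9.55 and 8.88 in naive muscle (log2 -2.54, SE 0.27, adjusted p = 9.41e-06). Sox7 was 2.72-fold, the junction gene Cdh5 2.27-fold, Vwf 2.00-fold, Robo4 1.99-fold and Pecam1 1.72-fold lower, the last not called under common-median scaling (log2 -0.44). The summed signal of the endothelial list was 23806 to 27180 at 2 dpi and 34317 to 38804 in naive muscle. Of 10 measured genes of smooth muscle and myofibroblasts (13 listed), 4 were lower, none higher and 6 not called, and 2 were lower under common-median scaling. Notch3 and Myh11, expressed in mural cells of vessels, were 2.31-fold and 2.43-fold lower. Rgs5 (log2 -0.21), Acta2 (-0.37) and Des (0.31) of the same list were not called.

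Water and fat genes fell as well. Aqp4, the water channel of fast fibres, had 7.03, 6.49 and 6.83 at 2 dpi against 8.94 and 8.57 in naive muscle (3.92-fold lower), and 4 of 5 measured genes of aquaporins and glycerol (6 listed) were lower, with the glycerol enzyme Gpd1 2.07-fold lower. Of 13 measured adipocyte genes (19 listed), 5 were lower and none higher, among them Lep, encoding leptin, 2.35-fold, and Dgat2, of triglyceride synthesis, 2.22-fold lower; 3 were lower without naive replicate 1 and 2 without both mice of high Eif2s3y. The summed signal of the adipocyte list was 13387 to 15482 at 2 dpi and 23474 to 24931 in naive muscle. Its member Adipoq was not called.

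The other large falls fell in no list or in few. Rsph1, a component of motile cilia, had 6.95, 6.81 and 6.87 at 2 dpi against 9.16 and 9.31 in naive muscle (5.14-fold lower, adjusted p = 3.08e-07). Angptl7 was 4.28-fold, the arrestin-like Arrdc2 4.56-fold, the potassium channel subunit Kcng4 3.79-fold and Tecta 3.77-fold lower. In each of these the infected mice lay below both naive mice.

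Several of the falls belonged to the circadian clock, whose repressors are switched on through E-boxes by the CLOCK and BMAL1 proteins. Of 14 measured clock genes (20 listed), 7 were lower and 2 higher. Ciart, a repressor of CLOCK and BMAL1, had 8.77, 7.17 and 7.78 at 2 dpi against 10.02 and 9.94 in naive muscle (4.22-fold lower, adjusted p = 0.000424). Per1 had 6.83, 6.66 and 6.62 at 2 dpi against 8.41 and 8.32 in naive muscle (3.16-fold lower), and Per3 and Per2 were 2.88-fold and 2.19-fold lower. The clock output genes Usp2 and Dbp were 2.60-fold and 2.12-fold lower. Arntl, which encodes BMAL1, was higher (log2 0.84, SE 0.21, adjusted p = 0.00533) but detected in only 1 infected mouse. It lost its call without background correction (log2 0.35) and when naive replicate 1 was left out (log2 0.60). The hour at which tissue was taken is not given in the sources used here.

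The promoters of Ciart and Per1 are printed with the E-box CACGTG in capitals, again 250 bases before an annotated start.
Ciart, chr3:95882229-95882478, minus strand: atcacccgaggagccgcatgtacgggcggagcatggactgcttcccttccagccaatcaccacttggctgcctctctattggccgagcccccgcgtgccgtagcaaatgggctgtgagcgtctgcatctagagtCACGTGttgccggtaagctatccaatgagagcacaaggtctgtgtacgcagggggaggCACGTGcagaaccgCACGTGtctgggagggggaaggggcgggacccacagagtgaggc
Per1, chr11:69098699-69098948, plus strand: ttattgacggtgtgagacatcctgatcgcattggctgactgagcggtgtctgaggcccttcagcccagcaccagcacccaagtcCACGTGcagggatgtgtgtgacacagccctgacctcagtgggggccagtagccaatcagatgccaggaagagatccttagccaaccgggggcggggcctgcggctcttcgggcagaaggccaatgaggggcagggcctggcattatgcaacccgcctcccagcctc
Ciart has 3 matches and this start of Per1 has 1, while the other annotated start of Per1 has none in its 250 bases. The letters CACGTG stood in 4 of 8 promoters of the clock genes called lower (6 genes with a promoter in the table), in 9.97% of promoters of all genes called lower, in 8.49% of those of genes called higher, in 10.2% of those of genes tested and not called and in 7.15% of all promoters.

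Cells that divide and cells that line the diaphragm gave smaller sets. Of 27 measured cell cycle genes (41 listed), 14 were higher and none lower, and 8 were higher without naive replicate 2. Mcm5, of the replicative helicase, was 2.19-fold higher (9.08, 9.0 and 9.11 at 2 dpi, 8.09 and 7.77 in naive muscle), its partner Mcm7 at least 1.33-fold and the kinase Cdk1 at least 1.01-fold higher. Without background correction Cdk1 missed the fold threshold (log2 0.46) and 8 of the list were higher. Of 8 measured mesothelial genes (12 listed), 7 were higher. Here too the filter favours rises, as of 11 with a probe 8 were detected at 2 dpi and 4 in naive muscle. Among them Wt1 was 2.17-fold and Upk1b 3.46-fold higher, and the keratins Krt8 and Krt18 were at least 3.31-fold and at least 1.22-fold higher. The summed signal of the mesothelial list was 3994 to 4864 at 2 dpi and 2158 to 2932 in naive muscle.

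Of 25 measured genes of oxidative stress and detoxification (29 listed), 7 were higher and 2 lower, Fmo1 and Fmo2 (log2 -0.68 and -0.67), with a median log2 change of 0.19. Without background correction 4 were higher and 1 lower, and without both mice of high Eif2s3y 5 were higher and none lower. Gsta1, an alpha-class glutathione transferase, had 10.18, 9.87 and 9.97 at 2 dpi against 4.44 and 4.45 in naive muscle, where it was not detected, a difference of at least 13.1-fold (adjusted p = 3.34e-11). Its close paralog Gsta2, which probes of this family may share, was at least 1.65-fold higher, and the heme oxygenase Hmox1 at least 2.73-fold. Of 14 measured heat shock genes (18 listed), 6 were higher and none lower, Hsph1 by 2.13-fold, Hspb8 by 1.95-fold and Hspa8 by 1.90-fold. In the endoplasmic reticulum 7 of 17 measured folding genes (28 listed) were higher, Creld2 by 2.66-fold, Hsp90b1 by 2.56-fold and Pdia3 by 2.37-fold. The lysosomal protease gene Ctsc was 4.84-fold higher, in a list of autophagy and lysosome genes with 11 rises and 2 falls in 21 measured. Vmn1r65, annotated as a vomeronasal receptor, gave the largest fitted change of all genes (9.45, 10.24 and 10.57 at 2 dpi, 4.51 and 4.49 in naive muscle, not detected in naive muscle, at least 13.9-fold).

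Of 27 measured genes of matrix remodelling (38 listed), 9 were higher, 1 lower and 17 not called; without background correction 6 were higher and none lower. Timp1, an inhibitor of metalloproteinases, had 10.57, 10.70 and 10.22 at 2 dpi against 6.75 and 7.07 in naive muscle (12.1-fold higher), the hyaluronan receptor Cd44 was 2.62-fold, tenascin gene Tnc at least 3.00-fold and Mmp3 at least 1.68-fold higher. Fibrillar collagens were not among the calls: of 28 measured genes of collagen formation (34 listed), 2 were higher and 4 lower, and Col1a1 (log2 -0.19, adjusted p = 0.59) and Col3a1 (0.38) were not called; under common-median scaling 9 were higher and 1 lower. Lox, which crosslinks collagen, was 2.14-fold higher and the collagen chaperone Serpinh1 1.98-fold. The basement membrane chains Col4a2 and Col4a1 were 1.99-fold and 1.67-fold lower, and Col4a1 missed the threshold under common-median scaling (log2 -0.46) and when naive replicate 1 was left out (log2 -0.36, adjusted p = 0.0904) or both mice of high Eif2s3y were (-0.37), where Serpinh1 also missed the threshold (log2 0.76, adjusted p = 0.0544).

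To learn whether the early change needs eosinophils, the same contrast was made in PHIL mice (3 arrays at 2 dpi, 2 naive), which shares no array with the WT contrast. In PHIL muscle 1529 genes (18.6%) were called. Of the 1920 genes called in WT, 1860 had the same sign in PHIL (1037 of 1076 rises and 823 of 844 falls) and 1107 were also called there. The median log2 change of the WT rises was 0.78 in PHIL and 0.99 in WT, and that of the WT falls -0.61 in PHIL and -0.77 in WT; the genes were selected on the WT values, which enlarges the WT figure. Igtp changed by 5.81 in PHIL and 5.40 in WT, Chrng by 5.38 in PHIL and 5.46 in WT, and Aplnr by -2.14 in PHIL and -2.54 in WT. The test of the difference between the responses called 1 of 8226 genes (0.0122%), with 573 at an unadjusted p under 0.05. That gene was Tesmin, a metallothionein-like protein of the testis, with log2 signals in PHIL of 6.98, 6.52 and 6.99 at 2 dpi against 5.49 and 5.92 in naive muscle, and in WT of 6.13, 5.45 and 5.76 at 2 dpi against 6.72 and 6.75 in naive muscle (difference of responses 2.08, SE 0.29, adjusted p = 0.0466). It was not called without WT 2 dpi replicate 2 (adjusted p = 0.0920) or 3 (0.112), or without WT naive replicate 1 (0.0787) or 2 (0.185), nor under common-median scaling (0.163), without the detection filter (0.0703) or without both WT mice of high Eif2s3y (0.108). The median SE of a difference between responses was 0.22, against 0.16 for the WT change, so modest differences between the genotypes were not detectable with these numbers of mice.

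**Figure D4:**
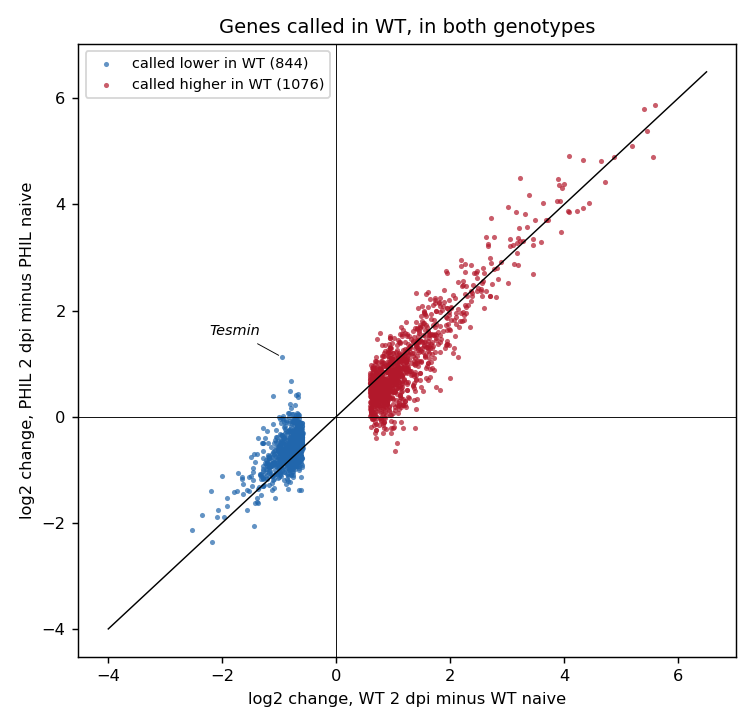
Each point is 1 of the 1920 genes called in WT, with its log2 change in WT (2 dpi minus naive) on the horizontal axis and in PHIL (2 dpi minus naive) on the vertical axis; the diagonal marks equal change. Of these genes 1860 lie in the quadrants of the same sign, and Tesmin is the gene whose responses differed by the test.

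The WT arrays at 7 dpi place these genes in time; they are compared with the same 2 dpi arrays, so the 2 contrasts are not independent and are given side by side. Between 2 and 7 dpi 1536 genes (18.7%) were called, 874 (10.6%) higher and 662 (8.05%) lower at 7 dpi. Gsta1 was near its naive values again, with 5.15, 4.88 and 4.57 at 7 dpi (7 minus 2 dpi -5.14, adjusted p = 4.28e-11; 7 dpi minus naive 0.43). Igtp had 11.57, 12.54 and 11 at 7 dpi, below all 2 dpi values and above both naive values (-2.45 against 2 dpi). Chrng with 7.92, 8.01 and 7.80 and Irf7 with 7.34, 7.47 and 7.02 were likewise lower at 7 than at 2 dpi (-2.49 and -2.46). All 10 GTPases and 23 of 24 genes of the type I interferon list were called lower at 7 than at 2 dpi, as were all 8 mesothelial genes and 11 of 20 genes of the stretch and injury list.

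Other early changes persisted or grew. Cxcl9 (11.23, 12.27 and 10.95 at 7 dpi) and Myl4 (12.87, 13.19 and 12.79) were not called between 2 and 7 dpi, with differences of -0.49 and -0.06. Gpnmb was higher again, with 11.48, 11.48 and 11.25 at 7 dpi (0.85 above 2 dpi), as was Cd74 (0.97). Tnc and Lox increased further, to 9.42, 10.12 and 9.54 and to 10.77, 11.17 and 10.74 at 7 dpi (1.81 and 2.09 above 2 dpi). In collagen formation, where 2 genes were higher at 2 dpi, 18 of 28 were higher at 7 than at 2 dpi, and in cholesterol and fatty acid synthesis 13 of 16 were. Sqle, of cholesterol synthesis, had 6.25 and 5.95 in naive muscle, 7.80, 7.73 and 7.06 at 2 dpi and 11.18, 11.15 and 11.09 at 7 dpi.

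Some early falls turned. Actc1, lower at 2 dpi, had 13.07, 12.83 and 12.95 at 7 dpi, 3.33 above 2 dpi and 1.15 above naive muscle. Cacna1h, a T-type calcium channel, was 2.01-fold lower at 2 dpi (6.07, 6.07 and 6.17, against 7.31 and 6.91 in naive muscle) and had 10.23, 9.80 and 10.15 at 7 dpi; its early fall was not called without background correction or under common-median scaling (log2 -0.53 in each). Aplnr reached 7.47, 8.14 and 7.95 at 7 dpi, above 2 dpi by 1.18 and still below naive muscle by a log2 difference of -1.36.

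**Figure D5:**
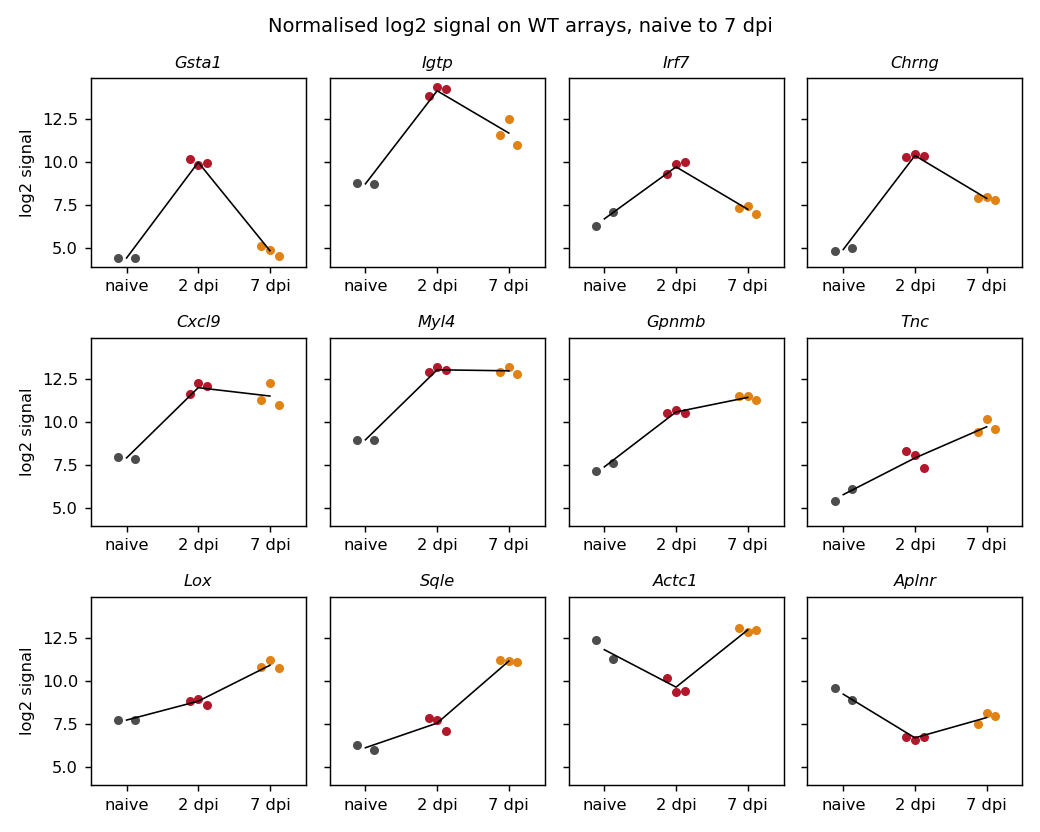
Each panel gives the normalised log2 signal of 1 gene on the WT arrays that were naive (2 arrays), at 2 dpi (3) and at 7 dpi (3), with a line through the group means. Gsta1, Igtp, Irf7 and Chrng are highest at 2 dpi, Cxcl9 and Myl4 stay high, Gpnmb, Tnc, Lox and Sqle are highest at 7 dpi, and Actc1 and Aplnr are lowest at 2 dpi.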

How the data were processed

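Diaphragm RNA of separate mice was hybridised to 1 array per mouse. The authors deposited mean bead signal intensities, made in GenomeStudio 1.8 per the submitters' notes, before any normalisation. Beside each intensity of the 25697 probes the authors deposited its detection p-value. Their normalised intensities, on the linear scale, served as an alternative; the methods name background subtraction, variance stabilisation and spline normalisation in lumi, but which steps made that table is not given in the sources used here. The genome build is not given in the sources used here. Platform annotation, updated through RefSeq, named 1 gene for 23978 probes and none for 1719.

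The 16 WT and PHIL arrays were normalised together with neqc (background from detection p, offset 16, quantile, log2; limma 3.58.1, R 4.3.3). Probes with detection p under 0.01 on at least 2 arrays were kept (10708), and each gene took its kept probe of highest interquartile range; of the 496 called genes with several kept probes, 73 had probes of differing sign. A fit of 6 groups (10 residual degrees of freedom) was tested with limma's moderated statistics, adjusted over all genes of each contrast. The fit was tested on simulated data. With arrays, precision is limited by their number. The p-values set a difference between group means against the spread between mice within the 6 groups. That spread comes from all 16 arrays fitted, not only from the WT arrays at 2 dpi and naive.

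Gene members and 52 lists were chosen with earlier results of these data known. Genes were named by rank among calls (15 rises, 15 falls, and 8 each way by later change), within lists (up to 5 called by adjusted p, 3 not called by level), by complex, as markers, or because the paper names them; Gbp3, Gbp5, Tgtp1, Iigp1, Tyrobp, Saa3, Cxcl12, Gadd45g, Ppargc1a, Cdh5, Per2, Arntl, Ifng, Il13, Fmo2, Chodl, Megf10, Dok7, Adipoq and Col3a1 were chosen after their values were seen. Promoters came from RefSeq; motifs were searched on both strands. Alternatives varied background, normalisation, filter, probe, variance model, threshold, covariate and single arrays.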

Additional observations from a re-analysis of the deposited data

Results flagged for a closer look

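Tesmin was the 1 gene for which the test of the difference between the PHIL and the WT response to 2 dpi passed the threshold, with a difference of 2.08 on the log2 scale (adjusted p = 0.0466). Its log2 change was 1.12 in PHIL (higher in 3 of 3 infected mice than in either naive mouse) and -0.95 in WT (lower in 3 of 3). In WT the probe was detected in 1 infected mouse and in 2 naive mice. The WT fall was not called without background correction (log2 -0.44) or under common-median scaling (-0.51). Without background correction the difference between the responses was 0.96 (adjusted p = 0.0233).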

How the results depend on the processing

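The 1920 genes called at 2 dpi became 969 (600 higher, 369 lower) without background correction, 978 with the values the authors deposited, 1165 with normexp at offset 50, 683 or 685 at 2-fold with adjusted or unadjusted p, and 3292 with no fold threshold; the other settings gave 1625 to 2535. Leaving out single arrays gave 1645 (without naive replicate 2) to 2051 genes. Deviations from the group means of arrays with the same replicate number correlated at -0.0672 and 0.0115. With 2 naive arrays, whose deviations mirror each other, these values cannot show whether the numbers pair the mice. The fit with the replicate block called 1922 genes, 1828 of them shared. The block ended the call of Chrne (adjusted p = 0.0646). Under common-median scaling 92.7% of calls were higher, against 56.0% in the main setting, and the signs of Cxcl12 (0.29), the glycolysis median (0.10) and the nerve and Schwann cell median (0.47, against -0.41) turned. With only the 5 arrays normalised and fitted, the nerve median was 0.53 and the mast cell median -0.14, against 0.38. Of 159 called genes examined singly, 147 kept their call under common-median scaling and 150 without background correction; leaving out that correction moved the fold of 56 genes by over 1.5 times. With the probe of highest mean signal for each gene, all 159 kept their call. The fitted folds of Irgm1, H2-T23, Gadd45g and Ctsc then moved by over 1.5 times.

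The difference between the PHIL and WT responses held 1 called gene, and 0 with all 24 arrays or with the replicate block, and 0 to 4 when single arrays were left out. That gene, Tesmin, also missed the threshold under common-median scaling (adjusted p = 0.163), without a detection filter (0.0703) and without both mice of high Eif2s3y (0.108). Between 7 and 2 dpi 1536 genes were called, 742 without background correction, 741 with the deposited normalised values and 1387 to 1598 when single arrays were left out. The naive group has 2 mice, which limits precision, and genes near the detection limit have bounds in place of folds.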

Other observations

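Several other gene lists gave the counts below, where 13.1% of all genes were called higher and 10.3% lower. Counts near these shares do not set a list apart. Of 23 measured genes of cytosolic ribosomal proteins 8 were higher and none lower, with a median log2 change of 0.45 (14 higher under common-median scaling). Of 16 measured cytokines and cytokine receptors 7 were higher and none lower; 4 were higher without naive replicate 2 and 2 without background correction. Muscle atrophy genes gave 4 rises and 3 falls in 11 measured, the glucocorticoid and fasting response 3 rises and 4 falls in 16, and immediate early genes 4 rises and no fall in 14. Fibroblasts and their progenitors gave 3 rises and 2 falls in 15, TGF-beta and related signalling 2 rises and 3 falls in 14 (no rise and 2 falls without naive replicate 2, no rise and 3 falls without both mice of high Eif2s3y), and insulin-like growth factors no rise and 1 fall in 11. Of 4 measured genes of B and plasma cells none was higher and 1 lower, and of 4 of red blood cells 2 were lower; without naive replicate 1 none of the B and plasma cell genes was called and 1 red blood cell gene was higher, and without both mice of high Eif2s3y no red blood cell gene was called.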
